A study of Mus musculus with 8 samples.

Results

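The genes described here encode the proteins of the cytosolic ribosome. They were taken by symbol: the large subunit genes named Rpl with a number, the small subunit genes named Rps with a number, the stalk genes Rplp0 to Rplp2, and Rpsa, with annotated pseudogenes left out. The pattern matched 83 symbols, of which 3 (Rps4l, Rpl32l and Rpl6l) are annotated as pseudogenes, which left 80 of the 55487 genes in the count table, 49 of the large and 31 of the small subunit. The libraries came from E14-Tg2a mouse embryonic stem cells, harvested on day 6 of a serum-free differentiation towards precardiac mesoderm, the tissue that gives rise to the heart. One group was the parental line, called WT in the labels (4 biological replicates, here parental 1 to 4). The other was line 4D, with the genotype Tbx1-/- (4 biological replicates, here mutant 1 to 4); Tbx1 encodes a T-box transcription factor of the pharyngeal mesoderm and is the main dosage-sensitive gene of DiGeorge syndrome. The 8 libraries shared the same parental background, medium and day, and the mutant genotype was represented by this single line, so what the loss of Tbx1 does and what is peculiar to line 4D cannot be told apart. The reads came from QuantSeq, a 3′ protocol that sequences a tag near the polyadenylated end of each mRNA.

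Every cytosolic ribosome carries 1 copy of most of these proteins, so their mRNAs are among the most abundant in a growing cell and tend to be made in step. Most of the mRNAs begin with a 5′ terminal oligopyrimidine (TOP) stretch, a C followed by a run of C and T, through which mTOR signalling and LARP1 control how strongly they are translated and how stable they are. Proliferating progenitors in the early heart field need a high rate of ribosome production, and mice and people with too little of a single ribosomal protein have tissue-specific defects, among them Diamond-Blackfan anaemia, a failure of red cell production.

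The starts of several members, some that fell and some that did not pass the test, are printed here because the TOP stretch is the sequence feature that the family is known for. A marked run of C and T is not by itself a TOP stretch, which begins at the first base of the mRNA. The runs of Rps15a and Rpl13 begin 15 and 16 bases before the annotated start, and that of Rpl26 begins 21 bases after it. The windows are from RefSeq's promoter table (build GRCm38.p6) and run 5′ to 3′ along the gene's own strand, from 40 bases before the annotated start to 30 bases from it on, and capitals mark the longest run of C and T of at least 8 bases that lies between 20 bases before the start and 30 bases after it. The first 8 belong to genes with lower counts in the mutant line (adjusted p under 0.05, described later) and the last 4 to genes with fold changes slightly above 0 that did not pass the test. Those 4 are a selection with long runs. Other windows of genes above 0 are not printed, and their longest runs are 3 bases for Rpl10, 5 and 11 bases for Rpl19, and 8 bases for another start of Rpl34. Rpl22 and Rpl36a hold no such run, so their windows are in lower case throughout.
Rpl38, chr11:114668540-114668609, plus strand: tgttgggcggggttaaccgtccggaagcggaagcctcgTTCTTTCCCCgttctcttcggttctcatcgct
Rps15a, chr7:118116118-118116187, minus strand: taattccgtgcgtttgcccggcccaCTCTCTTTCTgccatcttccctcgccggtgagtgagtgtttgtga
Rpl18, chr7:45718031-45718100, plus strand: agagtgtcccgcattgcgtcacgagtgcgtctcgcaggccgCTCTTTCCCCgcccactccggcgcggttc
Rpl27a, chr7:109519155-109519224, plus strand: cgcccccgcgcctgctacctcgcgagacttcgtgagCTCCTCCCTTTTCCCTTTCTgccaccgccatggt
Rpl13, chr8:123102310-123102379, plus strand: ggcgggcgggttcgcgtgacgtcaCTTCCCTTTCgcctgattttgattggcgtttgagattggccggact
Rpl26, chr11:68901526-68901595, plus strand: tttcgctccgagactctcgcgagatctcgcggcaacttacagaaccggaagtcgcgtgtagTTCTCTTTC
Rpl22, chr4:152325686-152325755, plus strand: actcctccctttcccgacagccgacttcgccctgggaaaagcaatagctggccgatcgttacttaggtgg
Rpl36a, chrX:134585614-134585683, plus strand: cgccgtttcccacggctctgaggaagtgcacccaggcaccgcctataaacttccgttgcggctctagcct
Rpl7a, chr2:26910767-26910836, plus strand: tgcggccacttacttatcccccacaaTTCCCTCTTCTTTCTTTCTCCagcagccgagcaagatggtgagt
Rpl34, chr3:130730308-130730377, minus strand: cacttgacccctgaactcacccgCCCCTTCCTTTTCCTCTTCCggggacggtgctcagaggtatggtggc
Rpl28, chr7:4792925-4792994, plus strand: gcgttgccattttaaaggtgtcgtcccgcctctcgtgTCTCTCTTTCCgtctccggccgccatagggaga
Rpl15, chr14:18270957-18271026, minus strand: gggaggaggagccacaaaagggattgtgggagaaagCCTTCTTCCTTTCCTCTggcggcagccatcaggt

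RefSeq's table was read without chromosome 18, where Rpl17 and Rps14 lie, and then held a start for 60 of the 80 members. A run of at least 8 pyrimidines lay near the start of 33 of these 60 (55%), against 5811 of all 27025 genes read (21.5%). Among the 8 members past the test that the table held, 6 had such a run, and the longest runs of all 12 printed windows were those of Rpl7a, Rpl27a and Rpl34, of which Rpl27a fell and Rpl7a and Rpl34 had small positive values. In the 300-base promoters (250 bases before to 50 after the start, both strands), the core of the ETS family motif, CCGGAAG, occurred in 25 of 60 members (41.7%) against 9.93% of all genes, and in 3 of the 8 past the test. AAGATGG, the core of the YY1 motif, occurred in 9 members (15%) against 7.28%. The CGCG element, a palindrome of 10 bases, occurred in 6 members (10%) against 0.525% of all genes, and in 1 of the 8 past the test. The E-box CACGTG, the preferred site of MYC with MAX, occurred in 6 members (10%) against 8.09%, and TATAAA in 6 members (10%) against 15.7%. A match describes the letters in these windows and is no evidence of binding.

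The libraries held between 3803561 and 6293907 counts. Tbx1, the targeted gene, had 39, 65, 38 and 22 counts in parental 1 to 4 and 3, 0, 1 and 0 counts in mutant 1 to 4, which matches the labels; the 3′ tags read only the end of the transcript, and the part deleted in line 4D is not given in the sources used here. The largest single gene was CT010467.1, a ribosomal RNA gene, with 10.2% to 13.0% of the counts in the parental libraries and 8.90% to 17.7% in the mutant libraries, highest in mutant 4. Parental 4 stood apart from the other parental libraries and mutant 3 from mutant 1 and 2 in many ribosomal protein genes. The counts of ribosomal protein genes past the test are therefore given with and without these libraries. Cells of different types were measured together, so fewer cells of a type with many ribosomes and less mRNA per cell cannot be told apart.

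Some ribosomal protein mRNAs of both subunits were lower in the mutant line, and most of the others had small negative values that did not pass the test. Of the 76 members with enough counts to test, 10 fell (adjusted p under 0.05, edgeR's quasi-likelihood test, Benjamini-Hochberg over all 13280 genes tested) and none rose. Among all tested genes 0.67% fell and 0.745% rose; among the 1745 other genes with a mean of at least 100 CPM (counts scaled to the TMM-adjusted library size), a level that 73 members also reached, 2.12% fell. The fitted log2 fold change (mutant minus parental) was below 0 in 69 of the 76 members, and its median was −0.24, against 0.0010 over all tested genes and −0.036 over the 1745 other genes of high level. At an unadjusted p under 0.05, 35 members were lower and none was higher, where all tested genes had 5.92% lower and 6.01% higher. In 27 members every mutant library was below every parental library, and in none was the reverse true; such separation downwards was seen in 4.04% of all tested genes and in 9.17% of the other genes of high level. The count of 10 depended on single libraries. It was 2 without parental 2 (0.284% of all genes fell in that fit), 5 without parental 3 (0.342%), 6 without parental 1 (0.415%) and 6 without mutant 1 (0.417%). It was 13 without parental 4 (0.616%) and 9 without mutant 3 (0.385%), and in these 6 fits no member rose. It was 24 with DESeq2 and 24 with limma-voom, both including all 10, where those tools called 1.48% and 1.05% of all genes lower, and 5 when libraries were scaled by their totals alone (0.429% of all genes lower).

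**Figure D1:**
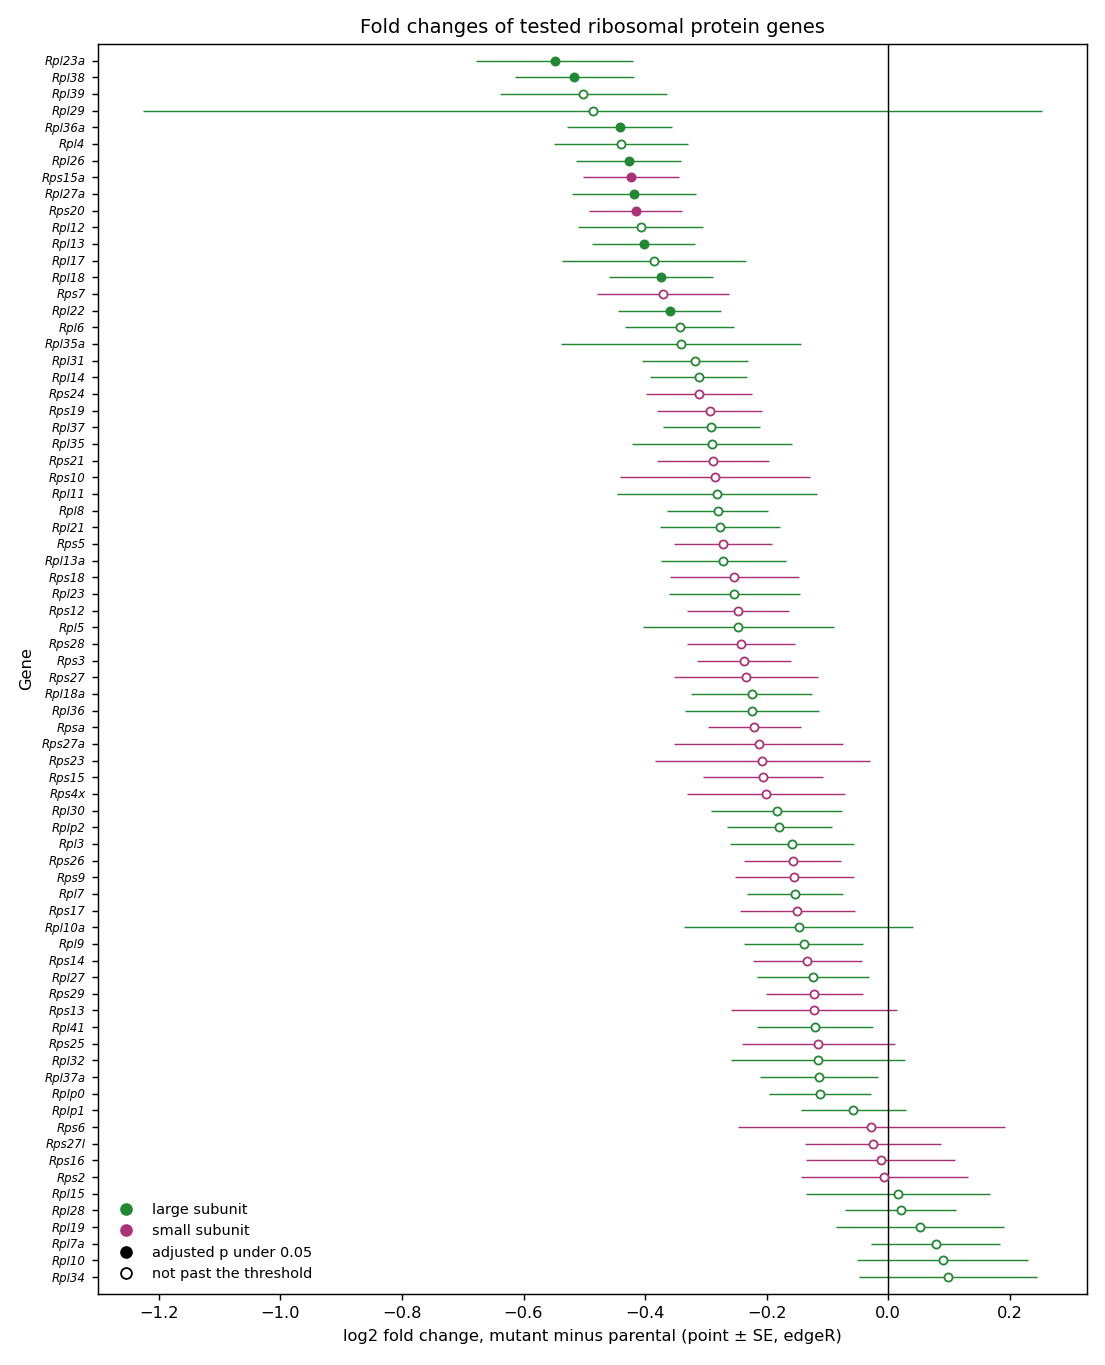
Fold changes of tested ribosomal protein genes, without those not reported here. Each row is a gene, the x axis is the log2 fold change (mutant minus parental) and the line is ± its standard error from edgeR; green marks large and magenta small subunit genes, and filled points have an adjusted p under 0.05. The points form 1 continuous spread from −0.55 (Rpl23a) to 0.098 (Rpl34), most of it left of 0, and the 10 filled points lie in its left part, with open points among them.

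The large subunit had 8 of its 45 tested members fall (17.8%), with a median log2 fold change of −0.27 and 39 values below 0 (86.7%). The small subunit had 2 of 31 fall (6.45%), with a median of −0.21 and 30 values below 0 (96.8%). Over all tested genes 0.67% fell and 49.8% had values below 0, and the difference between the subunits was not tested. The summed counts of the large subunit divided by those of the small subunit were 0.948 ± 0.0152 in the parental and 0.931 ± 0.0285 in the mutant libraries (SD, n = 4 each), with overlapping ranges of 0.927 to 0.961 and 0.895 to 0.960.

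Rps20, a protein of the head of the small subunit, lies at chr4:3831334-3835665 on the minus strand (GRCm38, GENCODE M21, as for all gene positions here). It had 3817, 3913, 3551 and 3478 CPM in parental 1 to 4 and 2840.4, 2912, 2852 and 2462 CPM in mutant 1 to 4. All 4 mutant libraries lay below all 4 parental ones, mutant 4 lowest. Rps20 fell by 25.0%, a log2 fold change of −0.42 (SE 0.077, adjusted p = 0.00700 by edgeR). Rps15a, which binds the central domain of 18S rRNA in the body of the small subunit (chr7:118104372-118116188, minus strand), had 1739, 1885, 1797 and 1616 CPM in parental 1 to 4 and 1337, 1293, 1291 and 1326 CPM in mutant 1 to 4. The mutant libraries were tightly grouped and separate from the parental ones. Rps15a fell by 25.4% (log2 fold change −0.42, SE 0.078, adjusted p = 0.00700 by edgeR). Rps20 and Rps15a passed the test in all 22 alternative fits run for single genes, with adjusted p-values up to 0.0494. The 3′ end of 1 annotated transcript was read per gene, of 3706 bases for Rps20 and 5179 bases for Rps15a. No 50-base stretch in the last 200 bases of either transcript occurs in the transcripts of another gene. Other ends of these genes were not read, so whether their counted tags are unique was not tested.

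Rpl38 is a small protein of the large subunit, and mice that lack 1 copy of it, the Tail short mutants, have altered patterning of the axial skeleton together with changed translation of a set of Hox mRNAs. It lies at chr11:114668524-114672331 on the plus strand and had 1007, 976, 905 and 831 CPM in parental 1 to 4 and 676, 728, 626 and 571 CPM in mutant 1 to 4. The groups did not overlap, although the lowest parental library, parental 4, was nearest to mutant 2. Rpl38 fell by 30.1% (log2 fold change −0.52, SE 0.10, adjusted p = 0.00845 by edgeR). Rpl36a, an X-linked gene (chrX:134585654-134588062, plus strand) whose protein sits near the exit site for tRNA, had 1231, 1393, 1214 and 1125 CPM in parental 1 to 4 and 929, 940.2, 904 and 879 CPM in mutant 1 to 4. Parental 2 was the highest library, and the mutant libraries were close together below all parental ones. Rpl36a fell with a log2 fold change of −0.44 (SE 0.087, adjusted p = 0.0109 by edgeR). All of its 3′ end is shared with 6 other genes of the annotation, so part of its counts may have been assigned elsewhere or not counted. Without parental 2 neither gene passed the test (adjusted p = 0.0513 for Rpl38 and 0.0744 for Rpl36a, edgeR), and both passed in the other 21 alternatives.

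**Figure D2:**
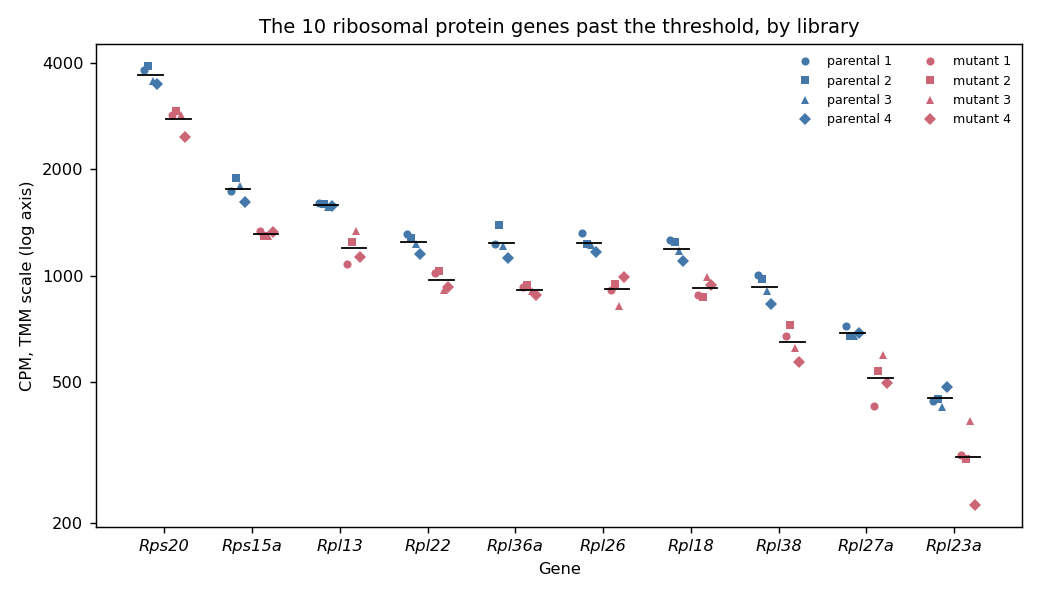
CPM (TMM scale, log axis) of the 10 ribosomal protein genes that fell, by library. Blue symbols are the 4 parental and red symbols the 4 mutant libraries, each replicate number has its own symbol, and bars are group means. In each of the 10 genes all red symbols lie below all blue ones, most tightly in Rps15a and most widely spread in Rpl23a.

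Genes for the exit tunnel, through which the growing peptide leaves the large subunit, held 3 of the 8 large subunit genes that fell: Rpl26, Rpl22 and Rpl23a. The list had 9 genes, so that 33.3% of it fell, against 13.2% of all tested members and 0.67% of all tested genes. Its median log2 fold change was −0.39, with 8 values below 0, and nothing particular to the list was tested. Rpl23a is the docking site at the tunnel mouth for factors that receive the new peptide (chr11:78180932-78183584, minus strand). It had 443, 448, 426 and 485 CPM in parental 1 to 4 and 312, 305, 388 and 225 CPM in mutant 1 to 4. Mutant 4 was lowest and mutant 3 nearest to the parental range, without overlap. The log2 fold change of Rpl23a, −0.55, was the lowest of all tested members (SE 0.13, adjusted p = 0.0397 by edgeR). Rpl26 lines the tunnel exit beside Rpl23a and also binds the mRNA of p53 (chr11:68901583-68906989, plus strand). Its values were 1320.5, 1229, 1222 and 1167 CPM in parental 1 to 4 and 909.6, 950.5, 823 and 991 CPM in mutant 1 to 4. All mutant values were below the lowest parental one, in parental 4. Rpl26 had a log2 fold change of −0.43 (SE 0.087, adjusted p = 0.0134 by edgeR). Rpl22 is dispensable for bulk protein synthesis but needed for the development of a class of T cells, and it represses its own paralog, Rpl22l1 (chr4:152325742-152334071, plus strand). It had 1315, 1282, 1232 and 1154 CPM in parental 1 to 4 and 1015, 1031, 909 and 928 CPM in mutant 1 to 4, again without overlap. The log2 fold change of Rpl22 was −0.36 (SE 0.085, adjusted p = 0.0390 by edgeR). Rpl22l1, which the symbol rule leaves out, had 15.8 ± 9.37 CPM in the parental and 28.6 ± 10.7 CPM in the mutant libraries (SD, n = 4 each), with overlapping groups (adjusted p = 0.369 by edgeR).

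The other members of the exit tunnel list did not pass the test. Rpl39, a short X-linked protein inside the tunnel, had 803, 769, 764 and 569.5 CPM in parental 1 to 4 and 617, 553, 373 and 509.7 CPM in mutant 1 to 4. Mutant 1 lay above parental 4, so the groups overlapped. Its log2 fold change was −0.50 (SE 0.14, adjusted p = 0.0835 by edgeR), and it passed in 8 of 22 alternatives, among them the fits without parental 4 (adjusted p = 0.0303) and without mutant 1 (adjusted p = 0.0487). Rpl4, whose extension reaches into the tunnel wall, had 1871, 2141, 1948 and 1570.2 CPM in parental 1 to 4 and 1486, 1410.0, 1098 and 1559 CPM in mutant 1 to 4. Its groups did not overlap, with parental 4 only just above mutant 4, and its log2 fold change was −0.44 (adjusted p = 0.0560 by edgeR). Rpl31, Rpl17 and Rpl35, around the tunnel rim, had log2 fold changes of −0.32, −0.39 and −0.29, none past the test. Rpl19, the remaining gene of the list, had 0.051.

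Rpl13, Rpl18 and Rpl27a were the remaining genes that fell. Rpl13, whose human counterpart is mutated in a skeletal dysplasia (chr8:123102350-123105244, plus strand), had 1608, 1599, 1560.5 and 1569 CPM in parental 1 to 4 and 1076, 1246, 1340.1 and 1131 CPM in mutant 1 to 4. The parental libraries were nearly equal, and mutant 3 was the nearest to them. Its log2 fold change was −0.40 (SE 0.085, adjusted p = 0.0190 by edgeR). Rpl18, one of the genes linked to Diamond-Blackfan anaemia (chr7:45715457-45720836, plus strand), had 1258, 1243, 1173 and 1099 CPM in parental 1 to 4 and 882, 872, 989 and 942 CPM in mutant 1 to 4. The mutant libraries lay below the lowest parental library, parental 4. Rpl18 had a log2 fold change of −0.37 (SE 0.085, adjusted p = 0.0330 by edgeR). Rpl27a, the gene altered in the sooty foot ataxia mouse (chr7:109519147-109522367, plus strand), had 720.2, 674, 675 and 689 CPM in parental 1 to 4 and 429, 539, 596 and 499 CPM in mutant 1 to 4. Mutant 1 was lowest and mutant 3 highest among the mutant libraries, which stayed below the parental ones. Its log2 fold change was −0.42 (SE 0.10), and its adjusted p of 0.0482 by edgeR was the largest of the 10.

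Among the 10 genes Rpl22 fell by 22.1%, the least, and Rpl23a fell by 31.7%, the most, with standard errors of 0.077 to 0.13 on the log2 scale. Several of these calls were lost when 1 library was left out. Rpl26 lost its call without parental 2 alone, and Rpl13 without parental 2, parental 3 or mutant 1. Rpl18 lost it without parental 1, 2 or 3 or mutant 1 or 2, and Rpl22 without parental 1, 2 or 3 or mutant 1, 3 or 4. Rpl23a and Rpl27a each lost it without any of parental 1 to 4, mutant 1, mutant 2 or mutant 4. The highest adjusted p-values, each without parental 2 (edgeR), were 0.0597 for Rpl26, 0.0873 for Rpl13, 0.148 for Rpl18, 0.156 for Rpl22, 0.135 for Rpl23a and 0.145 for Rpl27a. With library totals as the only scaling, Rpl13, Rpl18, Rpl22, Rpl23a and Rpl27a did not pass either. Rpl27a also missed the threshold when the largest gene was left out of the scaling (adjusted p = 0.0519), and Rpl22 when parental 4 and mutant 3 were both left out (adjusted p = 0.0699, both edgeR). None of the 10 changed direction in any alternative.

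A further 25 members had an unadjusted p under 0.05 without passing the adjusted threshold, and all 25 had negative log2 fold changes, from −0.50 to −0.22 (adjusted p = 0.0560 to 0.389, edgeR). In 16 of them the groups did not overlap, where 4.04% of all tested genes and 9.17% of the other genes of high level were separated downwards. These 25 were picked for a small p, which itself favours separation, so the 16 are no added support. The nearest to the threshold after Rpl4 were Rpl12, part of the base of the stalk, with −0.41 (adjusted p = 0.0570 by edgeR), Rpl14 with −0.31 (adjusted p = 0.0599) and Rpl6 with −0.34 (adjusted p = 0.0679). Rpl14 had 1481, 1481, 1422 and 1437 CPM in parental 1 to 4 and 1117, 1273, 1173 and 1126 CPM in mutant 1 to 4, with a clear gap between the groups. Rpl6 had 685, 633, 691 and 669 CPM in parental 1 to 4 and 516, 543, 563 and 488 CPM in mutant 1 to 4, also without overlap. These 4 genes were chosen for their rank after the fit.

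Levels of the tested members ran from a mean of 5.47 CPM (Rpl29) to 3458 CPM (Rps26), with a median of 863 CPM, against 21.6 CPM over all tested genes. A 3′ tag is read about once per mRNA, so these CPM were not divided by gene length. There were 32 members at 1000 CPM or more, 41 between 100 and 1000 CPM and 3 below 100 CPM (Rps6, Rps10 and Rpl29). Of the 50-base stretches in the last 200 bases of these 3, 72.2%, 46.4% and 33.8% also occur in other genes. In Rps10, 111 bases of that end also overlap RPS10-NUDT3 on the same strand. Their low counts therefore need not reflect low mRNA levels. Rps26, Rps14, Rps20 and Rpl37 were among the highest. Rps26, at the mRNA exit of the small subunit, had 3658, 3698, 3681 and 3547 CPM in parental 1 to 4 and 3065, 3358, 3731 and 2923 CPM in mutant 1 to 4. Mutant 3 was the highest of all 8 libraries, so the groups overlapped, and the log2 fold change was −0.16 (adjusted p = 0.458 by edgeR). Rps14, the small subunit gene lost in the human 5q- syndrome, had 3662, 3302, 3302 and 3524 CPM in parental 1 to 4 and 3255, 3469, 3310.3 and 2536 CPM in mutant 1 to 4. Mutant 4 was low and the other 7 libraries overlapped (log2 fold change −0.13, adjusted p = 0.617 by edgeR). Rpl37 had 2374 ± 200.1 CPM in the parental and 1940.5 ± 63.6 CPM in the mutant libraries (SD, n = 4 each), without overlap, and did not pass the test (log2 fold change −0.29, adjusted p = 0.0835 by edgeR). It passed with DESeq2, with limma-voom and without parental 4.

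Members with values above 0 included Rpl34 (0.10), Rpl10 (0.089), Rpl7a (0.078), Rpl19 (0.051), Rpl28 (0.020) and Rpl15 (0.016) on the log2 fold change scale, none of them past the test (adjusted p = 0.834 to 0.987, edgeR). Rpl7a, a protein bound to the 28S rRNA near the tunnel, had 474, 482, 570.3 and 429.8 CPM in parental 1 to 4 and 549, 542, 449 and 526 CPM in mutant 1 to 4. The groups overlapped over most of their range. Rpl10, the X-linked protein that joins the large subunit in a late maturation step, had 248, 288, 316 and 197 CPM in parental 1 to 4 and 311, 279, 224 and 302 CPM in mutant 1 to 4, with parental 4 lowest. The positive values of Rpl34 and Rpl10 turned to −0.016 and −0.028 without parental 4, and those of Rpl19 and Rpl28 also changed sign when single libraries were left out.

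Among smaller groups of members, the stalk, which recruits the elongation factors, had no gene past the test: Rplp0, Rplp1 and Rplp2 had log2 fold changes of −0.11, −0.058 and −0.18 (adjusted p = 0.664, 0.855 and 0.431, edgeR). Rpl5 and Rpl11 form a particle with 5S rRNA that also holds the p53 ligase MDM2 when ribosome assembly fails. Rpl5 had 295, 308, 282 and 237 CPM in parental 1 to 4 and 294, 284, 161 and 206 CPM in mutant 1 to 4, and Rpl11 had 271, 312, 292 and 192 CPM in parental 1 to 4 and 269, 237, 150.2 and 222 CPM in mutant 1 to 4. In both genes mutant 1 was within the parental range and mutant 3 was the lowest library. Their log2 fold changes were −0.25 and −0.28 (adjusted p = 0.586 and 0.549, edgeR). Of the 4 X-linked members, Rpl36a fell, while Rpl39 and Rps4x (−0.20, adjusted p = 0.594 by edgeR) had negative values and Rpl10 a positive one. Of the 18 genes on the Diamond-Blackfan anaemia list, 2 fell (Rpl26 and Rpl18), 17 had values below 0 and the median was −0.28. These shares, 11.1% and 94.4%, lie near those of all tested members, 13.2% and 90.8%. Rps19, the most often mutated of them, had 1279, 1307, 1338 and 1131 CPM in parental 1 to 4 and 966, 984, 1095 and 1078 CPM in mutant 1 to 4. Its groups did not overlap and its log2 fold change of −0.29 did not pass (adjusted p = 0.113 by edgeR). Rps27l, a p53-responsive copy of Rps27, stayed near 0 (−0.025, SE 0.11, adjusted p = 0.967 by edgeR).

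Rpl24, Rpl10l, Rpl39l and Rpl3l had too few counts to test. Rpl3l, the copy of Rpl3 used in adult heart and skeletal muscle, had 1, 5, 0 and 0 counts in parental 1 to 4 and none in the mutant libraries, and Rpl10l, a copy of Rpl10 used in spermatogenesis, had 0, 1, 0 and 0 counts and none. Rpl39l had no count in the parental libraries and 0, 0, 2 and 0 counts in mutant 1 to 4. Rpl24, a standard protein of the large subunit, had 0, 0, 1 and 0 counts in parental 1 to 4 and 0, 4, 0 and 0 in mutant 1 to 4. Of the 50-base stretches in the last 200 bases of the Rpl24 mRNA, 68.9% also occur in 6 other genes, and 75 bases of that end overlap Gm28037, which lies on the same strand. The near-zero counts of Rpl24 therefore cannot be read as a level of its mRNA. Among relatives outside the symbol rule, Rack1 of the small subunit head and the ubiquitin-like fusion gene Fau, which encodes Rps30, had log2 fold changes of −0.28 and −0.30 (adjusted p = 0.0923 and 0.346, edgeR). Rps3a1, whose symbol also falls outside, had 11.5 ± 4.51 and 10.1 ± 5.82 CPM (SD, n = 4 each).

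Ribosomal protein genes have many processed pseudogenes, and reads that fit more than 1 gene can be lost or split in counting. Only 1 annotated transcript was read per gene, and its end need not be where the tags lie. In 45 of the 80 members at least 1 50-base stretch of its last 200 bases occurred in the transcripts of another gene. The 32 tested members with no such stretch had 4 fall and a median log2 fold change of −0.27, and the 44 with one had 6 fall and a median of −0.19. Among the genes that fell, Rps20, Rps15a, Rpl22 and Rpl27a had no shared stretch, all stretches of Rpl36a were shared, and the shared percentage was 72.8% for Rpl38, 72.2% for Rpl13, 68.9% for Rpl18, 68.2% for Rpl23a and 67.5% for Rpl26, so the levels of these 6 are less certain. Across the 76 tested members the log2 fold change had a Pearson's r of 0.14 and a Spearman's rho of 0.15 with the shared percentage, −0.16 and −0.26 with the mean level, and 0.032 and 0.058 with the GC content of the 3′ end. All of these relations are weak and are descriptions across genes, which are not independent replicates. Annotated ribosomal protein pseudogenes held 0.171% to 0.188% of counts in the parental and 0.131% to 0.154% in the mutant libraries. Of the 47 tested, none passed the test, and 37 had values below 0, with a median of −0.31. At an unadjusted p under 0.05, 3 of the 47 were lower and none higher, near the 5.92% lower and 6.01% higher of all tested genes. The largest, Rps13-ps1, had 1246 ± 43.8 and 1004 ± 26.3 CPM (SD, n = 4 each; adjusted p = 0.0570 by edgeR).

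Summed over all 80 members, ribosomal protein mRNA made up 8.15%, 8.35%, 8.03% and 6.98% of the counts in parental 1 to 4 and 7.05%, 7.04%, 6.63% and 6.21% in mutant 1 to 4. Parental 4 lay below mutant 1 and 2, so the groups overlapped on this scale. The exact Clopper-Pearson 95% intervals, which cover counting error only, ran from 6.96% to 7.01% in parental 4 and from 7.03% to 7.07% in mutant 1, and had a like width in the others (8.13% to 8.18%, 8.32% to 8.37% and 8.01% to 8.05% in parental 1 to 3; 7.02% to 7.07%, 6.61% to 6.65% and 6.19% to 6.23% in mutant 2 to 4). The means were 7.88 ± 0.611% and 6.74 ± 0.401% (SD, n = 4 each). The ribosomal RNA gene CT010467.1 took a varying part of each library. With its counts left out of the total, the shares were 9.13%, 9.29%, 8.98% and 8.03% in parental 1 to 4 and 7.74%, 7.82%, 7.55% and 7.55% in mutant 1 to 4, and the groups no longer overlapped. On the TMM scale, which sets the bulk of genes level between libraries, the members summed to 79742 ± 4556 CPM in the parental and 67119 ± 1832 CPM in the mutant libraries (SD, n = 4 each), also without overlap.

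**Figure D3:**
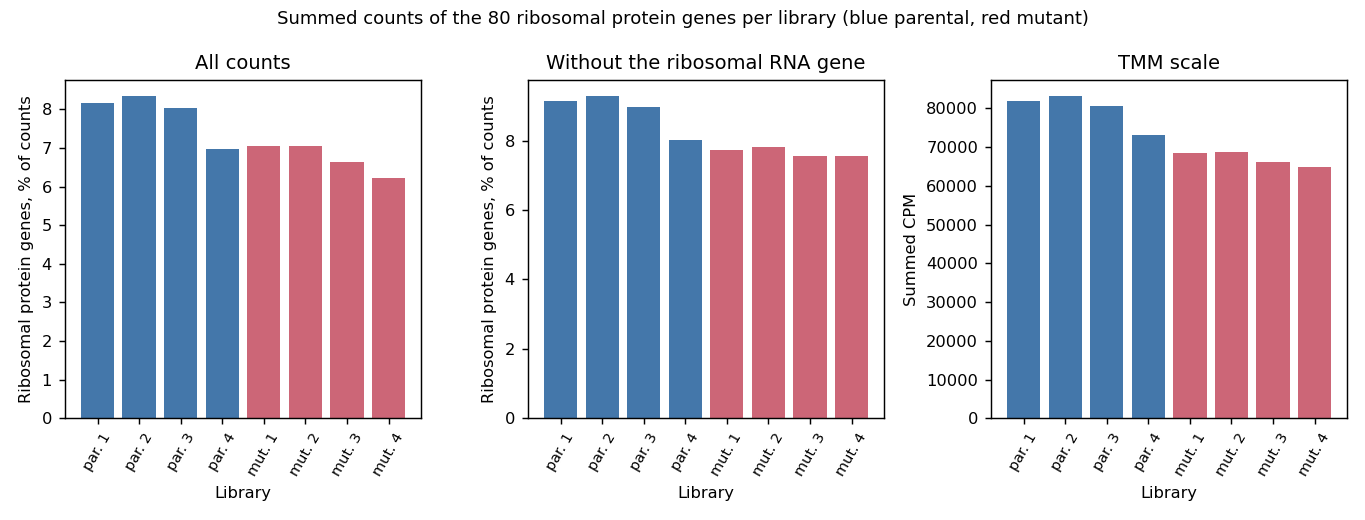
Summed counts of the 80 ribosomal protein genes in each library. The left panel gives them as percent of all counts, the middle panel as percent of counts without the ribosomal RNA gene CT010467.1 and the right panel as summed CPM on the TMM scale, with parental libraries in blue and mutant libraries in red. Parental 4 is lower than the other parental bars in all 3 panels; it lies below mutant 1 and 2 in the left panel and above every mutant bar in the others.

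The members also varied between libraries of the same line, and not all in the same way. Each library was compared with others of its line on the scale log2(CPM + 0.5). Parental 4 lay below the mean of parental 1 to 3 by a median of 0.23 over the members (values from −0.72 for Rps6 to 0.14 for Rpl23a). In the other genes of high level it lay above that mean by a median of 0.033. Mutant 3 lay below the mean of mutant 1 and 2 by a median of 0.17 over the members (values from −1.05 for Rpl10a to 0.40). In the other genes of high level it lay above that mean by a median of 0.0024. Members that were lower in 1 of these libraries tended to be lower in the other: across the 76 members the deviations of parental 4 and of mutant 3 had a Pearson's r of 0.67 and a Spearman's rho of 0.72. In the 73 members at 100 CPM or more r was 0.74 and rho 0.78, and in the 1745 other genes of that level r was 0.16 and rho 0.11. The points are genes measured in the same 7 libraries, and these correlations are descriptions, with the pair of libraries picked after their values were seen. The same was not seen with mutant 4. Across the 76 members, the deviations of parental 4 and of mutant 4 (from mutant 1 and 2) had an r of 0.22 and a rho of 0.010.

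Rps6, the small subunit protein phosphorylated by S6 kinases, had 62.9, 94.2, 101 and 51.2 CPM in parental 1 to 4 and 102, 79.5, 50.0 and 73.1 CPM in mutant 1 to 4. It was low in parental 4 and mutant 3, and also in parental 1. Rps23, at the decoding centre, had 447, 581, 592 and 329 CPM in parental 1 to 4 and 511, 459.6, 279 and 439.6 CPM in mutant 1 to 4, again lowest in parental 4 and mutant 3 of their lines. Both had fold changes that did not pass the test (−0.028 and −0.21 on the log2 scale, adjusted p = 0.982 and 0.717 by edgeR). Rps9, an early assembling protein of the small subunit, differed from these, with 1359, 1426, 1386 and 1417 CPM in parental 1 to 4 and 1163, 1193, 1546 and 1118 CPM in mutant 1 to 4, so that mutant 3 was its highest library and parental 4 was within the range of the other parental libraries. In all, 13 members at 10 CPM or more were more than 0.4 below their line's other libraries in both parental 4 and mutant 3 (among them Rpl34, Rps6, Rpl11, Rps23, Rpl39 and Rps4x), and none of them was among the 10 genes that fell. Of the 30 members with both deviations above −0.2, 9 were among the 10. Members that vary within a line have wider errors in the comparison of the lines, and the grouping was made after the values were seen. With parental 4 and mutant 3 both left out, 13 members fell (0.356% of all tested genes fell in that fit), 9 of them among the original 10, and the median log2 fold change of the members was −0.26. Among the members parental 4 was further below the other parental libraries in genes of lower level (r = 0.54 and rho = 0.55 between the deviation and the mean level). The ribosomal RNA gene CT010467.1 took 13.0% of the counts in parental 4 against 10.2% to 10.7% in parental 1 to 3, and 12.2% in mutant 3 against 8.90% and 9.86% in mutant 1 and 2. It took 17.7% in mutant 4, where the members' median deviation from mutant 1 and 2 was −0.061. Its part in the variation was not tested. Genes outside the family also deviated in parental 4, among them the heart muscle genes Myl7 (−1.91), Actc1 (−1.80) and Atp2a2 (−0.30). In mutant 3 the deviations of these genes were 0.13, 0.59 and 0.20. They were picked after their values were seen, and a link to the ribosomal protein genes was not tested.

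**Figure D4:**
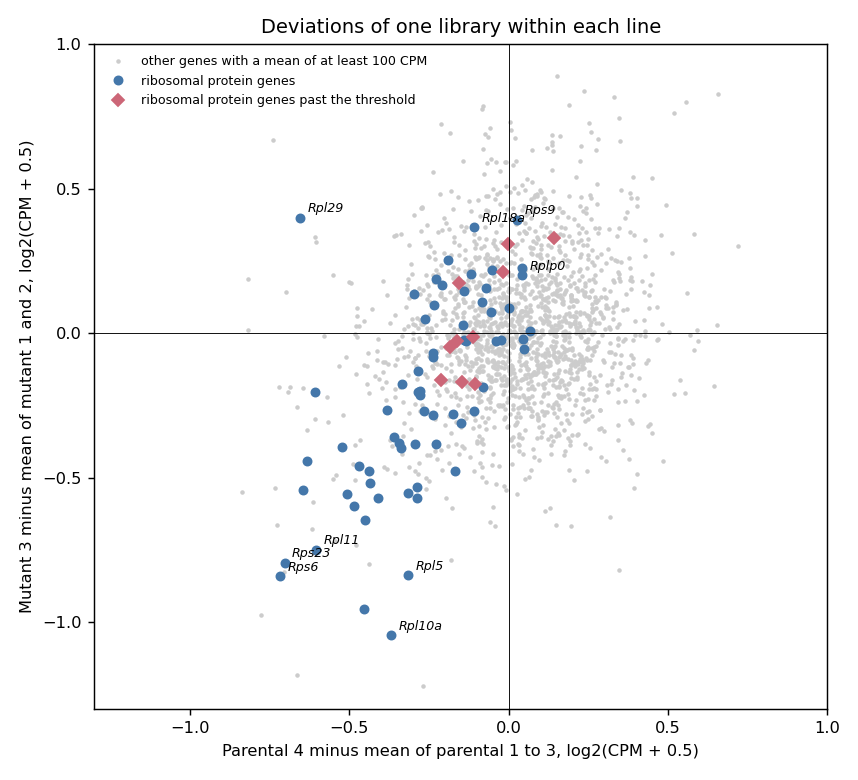
Deviation of parental 4 from the mean of parental 1 to 3 (x axis) and of mutant 3 from the mean of mutant 1 and 2 (y axis), both in log2(CPM + 0.5). Blue points are ribosomal protein genes, red diamonds those that fell in the mutant line, and grey points the 1745 other genes with a mean of at least 100 CPM. The blue points run from the lower left (Rps6, Rps23, Rpl11) to the upper right (Rps9, Rplp0) with r = 0.67, most red diamonds lie above and to the right of the bulk of the blue points, with Rpl23a the furthest right, and the grey points form a round cloud with r = 0.16; Rpl29, at upper left, has a mean of 5.47 CPM.

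Other genes of translation and ribosome assembly were read from the same fit. Of 32 translation factors and related genes, many of which also carry TOP mRNAs, 2 fell (0.67% of all tested genes did) and 23 had values below 0, with a median log2 fold change of −0.15. Eef1a1, which delivers tRNA to the ribosome, had 1179, 1272, 1022 and 1184 CPM in parental 1 to 4 and 672, 794, 754 and 632 CPM in mutant 1 to 4. The groups were far apart, and the log2 fold change of −0.71 (SE 0.10, adjusted p = 0.000555 by edgeR) was lower than that of any ribosomal protein gene. Nap1l1, a histone chaperone with a TOP mRNA, fell with −0.43 (adjusted p = 0.0202 by edgeR), and Eef2, the translocation factor, had −0.30 (adjusted p = 0.0935 by edgeR). Of 58 ribosome assembly genes, 1 rose and 1 fell (0.745% and 0.67% of all tested genes did), too few to set the list apart. They were Emg1, a methyltransferase of 18S rRNA, with 0.72 (adjusted p = 0.0192 by edgeR), and Nop58, a core protein of box C/D snoRNA particles, with −0.48 (adjusted p = 0.0361 by edgeR). The median of that list was −0.079, with 39 values below 0. Of 13 host genes of snoRNAs (named Snhg or Gas5), 2 fell (0.67% of all tested genes did), and the median was −0.17. They were Snhg11 (−1.13, adjusted p = 0.00772 by edgeR) and Snhg14 (−0.63, adjusted p = 0.0380 by edgeR). Snhg14 hosts its snoRNAs in an imprinted, mainly neuronal transcript.

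The mitochondrial ribosome, built from a separate set of nuclear genes, had none of its 74 tested genes past the test by edgeR, and 2 were higher and 3 lower at an unadjusted p under 0.05. Its median was −0.041, with 44 of 74 values below 0, and the smallest adjusted p was that of Mrps35 (0.147 by edgeR). A list of 30 regulators held genes for MYC and its relatives, the mTOR pathway and TOP binding proteins, and the transcription factors Gabpa, Yy1, Sp1 and E2f1. None passed the test by edgeR, with 2 higher and none lower at an unadjusted p under 0.05 (6.01% and 5.92% of all tested genes). The median of this list was 0.11, and the smallest adjusted p was that of Mycl (0.410). Of 27 p53 target genes, none passed the test by edgeR, with 8 higher and none lower at an unadjusted p under 0.05 (6.01% and 5.92% of all tested genes), and the median was 0.32. The death receptor gene Fas had the smallest adjusted p (0.0867 by edgeR), at 1.22 ± 1.12 CPM in the parental and 8.38 ± 3.11 CPM in the mutant libraries (SD, n = 4 each). Cdkn1a and Mdm2, the best known p53 targets, had log2 fold changes of 0.74 and 0.39 (adjusted p = 0.150 and 0.272, edgeR).

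**Figure D5:**
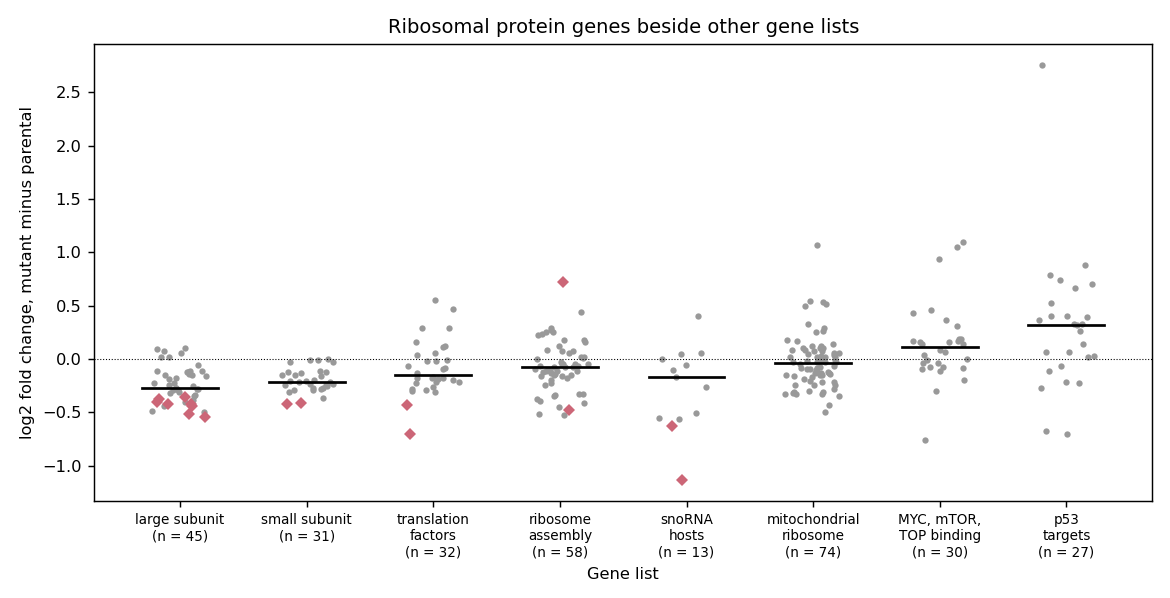
Log2 fold changes (mutant minus parental) of the tested genes of 8 lists, with 1 point per gene, a bar at each list's median, and red diamonds for genes with an adjusted p under 0.05. Sideways spread only separates the points. The list labelled MYC, mTOR, TOP binding also holds Gabpa, Yy1, Sp1 and E2f1. The ribosomal protein genes of both subunits form narrow clouds with medians of −0.27 and −0.21, the mitochondrial ribosome lies around −0.041, and the p53 targets are widely spread around 0.32.

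Some markers of cell types also differed between the lines. Of 12 erythroid markers, 5 rose, all globins (0.745% of all tested genes rose), and their summed counts made up 0.0153% to 0.0207% of the parental and 0.0747% to 0.108% of the mutant libraries. None of the 12 was at 0 in every library. All 15 tested cardiomyocyte markers had values below 0, without a gene past the test by edgeR and with 8 lower at an unadjusted p under 0.05, and they made up 0.0777% to 0.412% of the parental and 0.0282% to 0.124% of the mutant libraries; Nppb was at 0 throughout. Of 10 endoderm markers, Krt18 and Foxa2 fell (0.67% of all tested genes did). The summed shares of this list were 0.0335% to 0.0679% in the parental and 0.0303% to 0.0386% in the mutant libraries. Of 17 precardiac markers, Gata6 rose and Fgf10 fell (0.745% and 0.67% of all tested genes did). Their list had summed shares of 0.184% to 0.329% and 0.199% to 0.237%, so markers of the labelled tissue were present in both lines. Its median log2 fold change was −0.63, with 11 values below 0. At an unadjusted p under 0.05, 7 were lower and 4 higher, where all tested genes had 5.92% lower and 6.01% higher. Myl7 and Tnnt2 are on both this list and the cardiomyocyte list. None of 10 endothelial or 6 neural markers passed the test, and 1 of 8 pluripotency markers, Klf2, rose (0.745% of all tested genes did). Endothelial, neural and pluripotency markers held at most 0.124%, 0.00698% and 0.0109% of any library. The part that a different mix of cell types has in the levels of the ribosomal protein genes was not tested.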

How the data were processed

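Whole-number counts per gene from 8 QuantSeq 3′ libraries were deposited by the authors as 1 table with Ensembl identifiers. Per the submitters' processing notes, STAR and featureCounts were used with mm10, which is the build GRCm38; the deposited table is named for forward-strand counting, and versions and the treatment of reads that fit several genes are not given in the sources used here. Symbols, biotypes and 3′ ends came from GENCODE M21 (55227 of 55487 identifiers matched) and promoters from RefSeq.

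Genes were kept by edgeR's filterByExpr (13280 genes, 99.5% of counts, 76 of 80 members), scaled by TMM and tested with edgeR 4.0.16's quasi-likelihood F test in R 4.3.3, with line as the only term and Benjamini-Hochberg adjustment over all tested genes (threshold 0.05). Standard errors are the absolute log2 fold change divided by the square root of F. The test was tried on simulated data first. Depth was 3803561 to 6293907 counts per library. No pair of libraries in a line was a duplicate (chi-square per degree of freedom 7.04 to 24.2). The highest values were those of mutant 4 with mutant 1, 2 and 3 (24.2, 19.4 and 16.6), so over all genes mutant 4 stood furthest from its line. Groups follow the genotype label.

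Alternatives were other scalings, filters, a stricter threshold, thinning, DESeq2 1.42.0, limma-voom (limma 3.58.1), robust empirical Bayes, a replicate block and leaving out each library; 4 were chosen after seeing the data (the 83 symbols, edgeR's bias-adjusted test, leaving out parental 4 with mutant 3, and leaving out the 4 largest members). The genes named were Tbx1, every member past the threshold, the 5 smallest p-values in each direction, the 5 highest levels, the stalk, 5S, paralog and X-linked members, members under the filter, relatives outside the rule, and the leading genes of each list; Rpl4, Rpl12, Rpl14, Rpl6, Rps19, Rps6, Rps23, Rps9, Rps10, Rpl29, Rpl10a, Rpl15, Eef2, Cdkn1a, Mdm2 and others given by value were added after their values were seen. The members and all lists were chosen with earlier results of these data known. Single values of a few genes are not reported here; the genes stay in the counts, sums and medians.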

Additional observations from a re-analysis of the deposited data

Results flagged for a closer look

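Of 60 groups of 4 libraries checked, 3 had 1 library far from the other 3 by Dixon's criterion, which chance meets in about 1 group of 20. Rps20 in mutant 4 had 2462 CPM, where the other mutant libraries had 2840.5 to 2912 CPM. Rpl39 in parental 4 had 569.5 CPM, where the other parental libraries had 764 to 803 CPM. Rps4x in parental 4 had 488 CPM, where the other parental libraries had 644 to 676 CPM.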

How the results depend on the processing

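The median log2 fold change of the ribosomal protein genes stayed below 0 in every alternative run, from −0.28 without parental 4 to −0.21 with library totals alone, and the difference in their share of counts ran from −1.44 to −0.964 percentage points. The number past the threshold, 10 (0.67% of all tested genes fell), moved to 5 with library totals alone (0.429%), to 24 with DESeq2 (1.48%) and to 24 with limma-voom (1.05%). It was 3 at an adjusted p under 0.01, where 0.648% of all tested genes passed in either direction. Leaving out 1 library gave 2 to 13 (0.284% to 0.871% of all tested genes fell). Without a filter 15 passed (0.864% of all genes fell in that fit), and 14 with either robust empirical Bayes (0.745%) or the bias-adjusted test (1.17%). With the other scalings, the other filter, thinning and all 83 symbols, 9 to 10 passed (0.648% to 0.708%). Every call was downwards. Replicate numbers did not pair the libraries (correlations of same-numbered deviations 0.106, 0.014, −0.033 and 0.030, and 1 library pair of 4 correlated best with its own number). Adding the number as a replicate block gave 9 calls (0.866% of all tested genes fell in that fit), 8 of them among the 10. Rpl18 and Rpl27a had an adjusted p of 0.0529 (edgeR) and Rpl39 one of 0.0453. Fold changes near 0 changed sign. Rps27l was 0.0041 with thinned libraries. With 1 library left out, log2 fold changes ran from −0.092 to 0.017 for Rps27l, −0.016 to 0.22 for Rpl34, −0.028 to 0.18 for Rpl10, −0.029 to 0.15 for Rpl19 and −0.032 to 0.057 for Rpl28. Rpl29, with 0 to 91 counts per library, is limited by counts. Rps6 had 243 to 636 counts per library, and its values varied between libraries of the same line.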
